A study of Homo sapiens with 4 samples.

Results

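H3K36me2 peaks between genes are the CUT&RUN peaks of the H3K36me2 mark whose summit, the base covered by the most sequenced fragments, lay outside every protein-coding gene. They were taken from the peak lists of MV4;11 cells treated with DMSO or with AS-99, on chromosomes 1 to 22 and X, leaving out peaks within 2 Mb of a run of at least 1 Mb of undetermined bases, such as a centromere. The rule found 628 members among 1303 eligible peaks with DMSO and 263 among 591 with AS-99. Together these were 891 of the 2027 H3K36me2 peaks listed and of the 6948 peaks of all 4 lists of the study, which also profiled ASH1L. MV4;11 is a human leukemia line with a rearranged MLL1 gene that makes an MLL-AF4 fusion, and every library came from this 1 line. Control cells received 0.25% DMSO and treated cells 5 µM AS-99, a small molecule inhibitor of the methyltransferase ASH1L, for 4 days. Each combination of antibody and treatment was a single library (n = 1), so no difference could be set against the spread between replicates, and p-values are not given. Brackets after a value hold 95% intervals that cover counting error, or for medians the spread over peaks, only.

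H3K36me2 is histone H3 with 2 methyl groups on lysine 36. The mark is written by enzymes of the NSD family and by ASH1L, is spread over gene bodies and wide stretches between genes, and limits the spread of the repressive H3K27 methylation made by Polycomb complexes. Between genes it is known to recruit the DNA methyltransferase DNMT3A, and such sequence also holds enhancers and the genes of long noncoding RNAs (lncRNAs). A domain this broad gives low and even signal, whereas the lists hold narrow local maxima: the median member was 354.5 bp long with DMSO and 322 bp with AS-99. The members therefore describe local maxima of the mark, and their number is not the amount of the mark.

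A few summit windows are printed first as examples. Some were chosen because they hold motif matches, so they are not typical of all members, whose motif shares are given at the end. Each window is 300 bases of the forward strand of GRCh37, the sequence of hg19, with the summit near its middle. Capitals mark exact matches, on either strand, to a RUNX motif (TGTGGT), an ETS motif (AGGAAGT) or an AP-1 motif (TGANTCA), the letters bound by 3 families of transcription factors active in blood cells. The first is the summit of the highest member at chr1:234914049-234914348 in the interval with the most DMSO members, between IRF2BP2 and TOMM20, which no AS-99 peak overlapped. The second, at chr2:145458859-145459158, lies 180 kb from ZEB2 in the lncRNA gene TEX41 and was likewise listed with DMSO alone. The third, at chr4:51617-51916, holds RUNX and ETS matches 1413 bp from ZNF595 and was not overlapped with AS-99. The fourth, at chr19:6522141-6522440 between TUBB4A and TNFSF9, was retained with AS-99 and holds 2 ETS matches. The fifth, at chr12:133058281-133058580 between GALNT9 and FBRSL1, was listed with AS-99.
IRF2BP2-TOMM20, DMSO: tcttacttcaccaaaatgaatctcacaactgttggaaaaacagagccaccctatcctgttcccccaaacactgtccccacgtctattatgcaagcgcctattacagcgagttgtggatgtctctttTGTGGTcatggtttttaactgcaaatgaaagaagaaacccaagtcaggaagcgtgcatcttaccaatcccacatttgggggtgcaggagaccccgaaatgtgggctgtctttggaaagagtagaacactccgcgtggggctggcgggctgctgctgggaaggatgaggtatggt
ZEB2-ACVR2A, DMSO: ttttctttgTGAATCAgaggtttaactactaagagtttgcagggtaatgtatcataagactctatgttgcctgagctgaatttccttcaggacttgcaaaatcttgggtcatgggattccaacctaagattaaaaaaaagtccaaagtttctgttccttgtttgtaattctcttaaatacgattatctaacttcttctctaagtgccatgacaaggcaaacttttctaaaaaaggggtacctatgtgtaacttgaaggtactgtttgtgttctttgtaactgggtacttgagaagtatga
ZNF595 upstream, DMSO: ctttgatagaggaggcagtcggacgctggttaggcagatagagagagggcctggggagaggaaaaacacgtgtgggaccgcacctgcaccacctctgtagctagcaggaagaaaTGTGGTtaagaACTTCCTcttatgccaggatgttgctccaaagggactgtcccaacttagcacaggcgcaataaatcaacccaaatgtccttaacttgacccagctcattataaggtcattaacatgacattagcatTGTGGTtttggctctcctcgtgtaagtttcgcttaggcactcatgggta
TUBB4A-TNFSF9, both treatments: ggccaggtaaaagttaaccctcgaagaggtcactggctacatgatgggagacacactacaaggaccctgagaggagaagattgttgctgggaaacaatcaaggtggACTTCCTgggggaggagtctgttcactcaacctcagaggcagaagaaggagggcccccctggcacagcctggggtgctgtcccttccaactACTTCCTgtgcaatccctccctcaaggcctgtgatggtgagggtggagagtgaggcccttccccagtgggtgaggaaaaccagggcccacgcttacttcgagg
GALNT9-FBRSL1, AS-99: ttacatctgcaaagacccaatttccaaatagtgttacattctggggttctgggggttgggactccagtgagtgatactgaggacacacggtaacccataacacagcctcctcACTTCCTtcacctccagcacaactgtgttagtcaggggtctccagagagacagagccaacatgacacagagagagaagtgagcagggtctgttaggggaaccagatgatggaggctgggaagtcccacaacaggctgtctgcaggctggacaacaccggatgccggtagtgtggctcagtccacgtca

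The H3K36me2 libraries held 15584143 (DMSO) and 13208636 (AS-99) fragments after filtering, with mean fragment sizes of 288 and 269 bp. The pileup, which counts the fragments that cover a summit, had a median of 19 in DMSO members (range 10 to 90) and 14 in AS-99 members (range 9 to 73). The lowest −log10 p of the whole list was 5.35 with DMSO and 5.53 with AS-99. A place that is missing from a list did not reach these thresholds at this depth, and may still carry the mark.

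To examine whether AS-99 changed where H3K36me2 maxima lie, the members were first counted. There were 263 with AS-99 for 628 with DMSO, a ratio of 0.419 (0.361 to 0.484), or 0.494 when each count was divided by its library's fragments. Inside protein-coding genes the counts were 328 and 675, a ratio of 0.486 (0.425 to 0.555). Members made up 48.2% (45.5% to 50.9%) of eligible DMSO peaks and 44.5% (40.4% to 48.6%) of eligible AS-99 peaks, a difference of −3.70 percentage points (−8.50 to 1.16). Sequence between genes made up 53.5% of the sequence allowed by the rule, 1475 of 2755 Mb, so both lists held somewhat fewer intergenic summits than their share of bases. The fall in number was thus of similar size on both sides of gene boundaries. With all chromosomes included the difference of shares did not exceed its counting error, but without chromosome 8 its interval left out 0. The ratio depended on the score required: with a fold enrichment of at least 5 it was 0.886 (0.701 to 1.12), from 140 AS-99 and 158 DMSO members. With a −log10 p of at least 10 it was 0.380 (0.289 to 0.496).

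**Figure D1:**
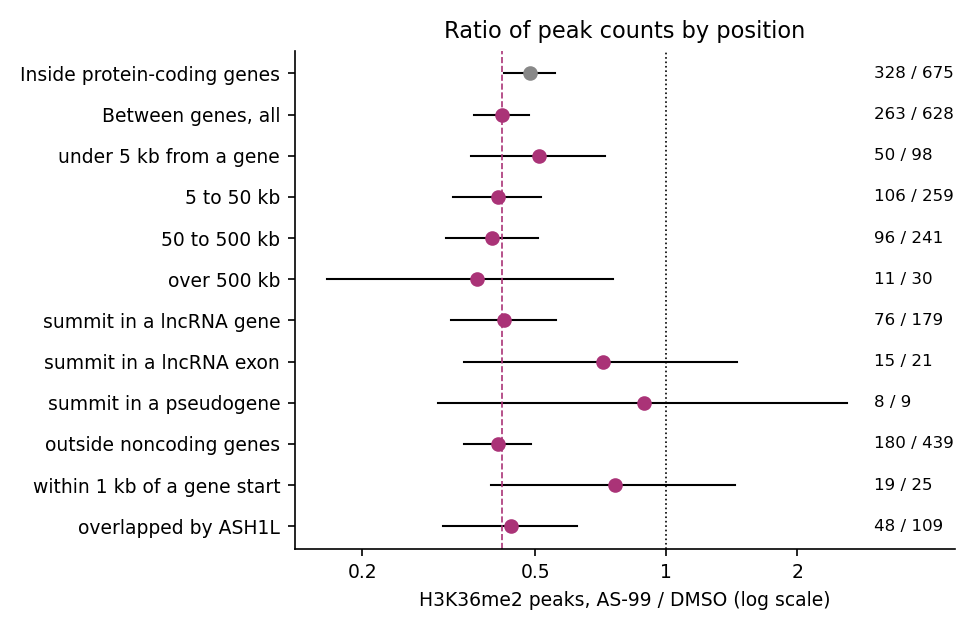
Number of H3K36me2 peaks with AS-99 divided by the number with DMSO (log axis) for peaks inside protein-coding genes (grey) and for classes of peaks between genes (purple). Points are ratios of counts, bars are exact 95% intervals of counting error, the counts (AS-99 / DMSO) stand at the right, the dashed line is the ratio of all members, 0.419, and the dotted line is equality. All distance bands lie below 1, from 0.510 under 5 kb to 0.367 over 500 kb, with overlapping bars.

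Distance to the nearest protein-coding gene was then compared. The median member lay 38.7 kb (31.95 to 44.3) from a gene with DMSO and 28.8 kb (24.4 to 40.4) with AS-99, with overlapping intervals. The median base between genes lay 97.2 kb from one. Members of both lists were therefore nearer to genes than the sequence in which they lie. From the start of the nearest gene the medians were 59.1 kb (49.8 to 68.4) with DMSO and 46.8 kb (36.98 to 66.5) with AS-99.

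In bands of distance, 98 DMSO members (15.6%) and 50 AS-99 members (19.01%) lay under 5 kb from a gene, where 7.90% of the intergenic bases lie. At 5 to 50 kb there were 259 (41.2%) and 106 (40.3%), against 29.4% of bases. At 50 to 500 kb there were 241 (38.4%) and 96 (36.5%), against 47.4% of bases. Beyond 500 kb, in the gene deserts, there were 30 (4.78%) and 11 (4.18%), against 15.3% of bases. The density with DMSO went from 0.841 members per Mb under 5 kb to 0.598, 0.345 and 0.133 in the bands farther out. With AS-99 it went from 0.429 to 0.245, 0.137 and 0.0488. The order of the bands was the same with both treatments, and each band held fewer members with AS-99, at ratios of 0.510 (0.355 to 0.724), 0.409 (0.323 to 0.515), 0.398 (0.311 to 0.507) and 0.367 (0.166 to 0.753). Within 50 kb of a gene lay 56.8% of DMSO and 59.3% of AS-99 members, a difference of 2.47 points (−4.67 to 9.43).

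**Figure D2:**
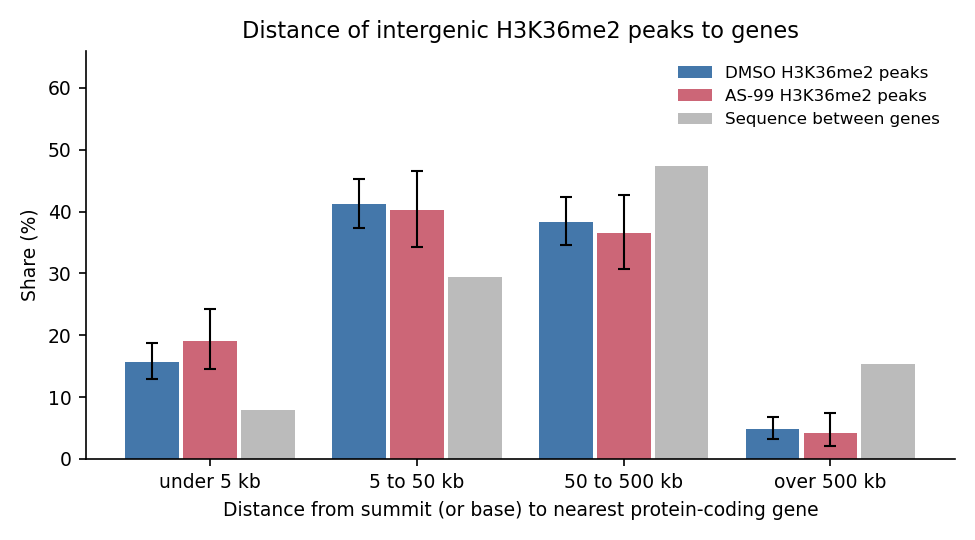
Share of H3K36me2 peaks between genes in 4 bands of distance to the nearest protein-coding gene, for DMSO (628 peaks, blue) and AS-99 (263 peaks, red), beside the share of intergenic bases in each band (grey). Bars start at 0 and the error bars are exact 95% binomial intervals. Both lists exceed the share of bases under 50 kb and fall below it over 50 kb, and the error bars of both treatments overlap in every band.

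Close to gene starts the ratio of counts was nearer to 1 than in any band of distance. Within 1 kb of the start of a protein-coding gene, but outside the gene, lay 25 DMSO members (3.98%) and 19 AS-99 members (7.22%), a difference of 3.24 points (0.10 to 7.23), with a ratio of counts of 0.760 (0.396 to 1.44). The lower bound of that difference is close to 0. The nearest DMSO members lay 7 bp upstream of ARHGEF18, with 28 fragments, and 33 bp upstream of MYBPH, with 17. The nearest AS-99 members lay 33 bp upstream of NRDE2, with 12 fragments, and 68 bp upstream of PDCD10, in the short space shared with SERPINI1, with 15. The nearest gene was approached from its 5′ side by 54.6% of DMSO and 57.4% of AS-99 members, against 53.4% of intergenic bases, so upstream and downstream sides were used about as their share of sequence.

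At the other end, the farthest DMSO member was on chromosome 5 from 164441740 to 164442207, 1496 kb from MAT2B, inside the lncRNA gene LINC03000, with 22 fragments. The next, on chromosome 2 from 35214853 to 35215345, lay 1368 kb from CRIM1 in the lncRNA gene ENSG00000226994, with 19. The farthest AS-99 member was in the same gene desert of chromosome 5, from 165056945 to 165057230 and 1349 kb from TENM2, with 11 fragments in the lncRNA gene ENSG00000253693. The other, on chromosome 6 from 141095193 to 141095634, lay 1284 kb from NMBR, also with 11. All 4 of these summits lay inside annotated lncRNA genes.

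Noncoding genes were examined next, because many lncRNAs are transcribed from enhancers. A summit in any noncoding gene or pseudogene was found for 189 DMSO members (30.1%, 26.5% to 33.9%) and 83 AS-99 members (31.6%, 25.99% to 37.6%), a difference of 1.46 points (−5.01 to 8.26). Such genes cover 30.3% of the intergenic bases, so neither list held more of these summits than the sequence offers. Of these, 179 with DMSO (28.5%) and 76 with AS-99 (28.9%) were in lncRNA genes, which cover 28.6% of the bases. Pseudogenes held 9 and 8 summits (1.43% and 3.04%, against 2.40% of bases). Small RNA genes held 1 with DMSO and 0 of 263 with AS-99, and the remaining classes held the same numbers.

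Exons of lncRNA genes, and the sequence within 1 kb of their starts on either side, held more summits than their share of intergenic bases. Exons held 21 DMSO summits (3.34%, 2.08% to 5.07%) and 15 AS-99 summits (5.70%, 3.23% to 9.23%), against 1.69% of bases. Within 1 kb of a lncRNA start lay 27 (4.30%, 2.85% to 6.19%) and 17 (6.46%, 3.81% to 10.2%), against 1.39% of bases. Both differences between treatments had intervals that included 0, at 2.36 points (−0.44 to 6.03) and 2.16 points (−0.88 to 6.04). The median distance to a noncoding gene was 7.12 kb with DMSO and 6.26 kb with AS-99.

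Among members in a lncRNA exon or near a lncRNA start, the highest with DMSO lay in an exon of LINC01226 on chromosome 1 from 31989667 to 31990375, with 29 fragments. Another, on chromosome 3 from 128949328 to 128949665, lay 85 bp from the start of ENSG00000289351, between CNBP and COPG1, and was retained, with 26 fragments with DMSO and 14 with AS-99. Others with 25 fragments each lay in exons of LINC02937 near AUH, of ENSG00000241666 upstream of RCSD1, and of LINC00964 near MTSS1. The highest with AS-99 lay in an exon of ENSG00000287899 between TMEM212 and FNDC3B, with 24 fragments. An AS-99 member on chromosome 16 from 85887414 to 85887765 lay 45.2 kb upstream of IRF8, a transcription factor of monocyte and dendritic cells, at the start of ENSG00000289932, with 21 fragments and no DMSO counterpart. An AS-99 member on chromosome 3 from 46448227 to 46448502 lay 287 bp upstream of CCRL2, a chemokine receptor-like protein, and in an exon of CCR5AS, with 19 fragments. Both were in the AS-99 H3K36me2 list alone of the H3K36me2 pair. ASH1L peaks of both treatments overlapped the member near CCRL2, and of neither treatment that near IRF8.

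Counted by gene, 175 of 18823 lncRNA genes held a DMSO summit, 81 an AS-99 summit and 18 both, which is 10.3% of the former and 22.2% of the latter. CCDC26, LINC02937 and ENSG00000287277 held 3 DMSO summits each and 0 with AS-99. TEX41, DLEU1, LINC00299 and CRTC3-AS1 were among those that held 2 with DMSO and 0 with AS-99. In the other direction, SCIRT held 0 with DMSO and 2 with AS-99. ENSG00000234261, in the interval of JARID2, held 2 with DMSO and 1 with AS-99. The genes named here are long, from 97.1 to 1050 kb, and longer genes offer more places for a summit. Shorter genes also held 2 with DMSO and 0 with AS-99, such as ENSG00000287093 of 17.1 kb.

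A list of 22 noncoding genes known in leukemia or chromatin was followed by the nearest member within 50 kb. With DMSO 4 of 22 had one: DLEU2 with 20 fragments, LUCAT1 with 16, PVT1 and CCDC26. With AS-99 the 1 gene was MIR181A1HG, the host of a microRNA cluster with roles in blood cells, with 16 fragments. Over all lncRNA genes 4.26% had a DMSO member and 1.87% an AS-99 member within 50 kb. HOTTIP, HOTAIR, HOTAIRM1, MALAT1 and NEAT1 had none with either treatment.

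Of 25 MLL fusion targets and genes the study followed, 1 had a DMSO member and 0 an AS-99 member within 50 kb, beside 3.47% and 1.69% of the 20098 protein-coding genes. The gene was RUNX2, a transcription factor of the RUNX family, with 3 DMSO members beyond its end on chromosome 6, at 17.4, 33.2 and 45.7 kb, with 28, 16 and 21 fragments. No AS-99 peak overlapped these 3. No member lay within 50 kb of HOXA9, HOXA10, MEIS1, MEF2C, FLT3, PBX3 or CDK6. MYB, a transcription factor of blood progenitors, had a member 62.1 kb away, on chromosome 6 from 135602175 to 135602761 and 2.16 kb from AHI1. That member was retained, with 27 fragments with DMSO and 20 with AS-99, and a DMSO ASH1L peak overlapped it. Of 13 H3K36 methylation enzymes and readers, including NSD1, NSD2, NSD3 and SETD2, 0 had a member of either list within 50 kb.

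Members were also counted by the stretch between neighbouring genes, or interval, that held them. DMSO members lay in 524 of these intervals and AS-99 members in 248. The 85 in common were 16.2% of the DMSO and 34.3% of the AS-99 intervals. Longer intervals hold members of both lists more often by length alone. The share of all intervals is not given, so these shares have no baseline. In 19 intervals there were 3 or more DMSO members, 67 in all, and no interval held 3 AS-99 members. Of DMSO members 126 (20.1%) lay within 100 kb of another, and of AS-99 members 18 (6.84%), where a longer list alone gives more neighbours. Whether members gather more than interval lengths and their nearness to genes would give was not tested.

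The interval with the most members lay between IRF2BP2, which encodes a transcriptional corepressor, and TOMM20, an import receptor of the mitochondrial outer membrane, on chromosome 1. Its 527 kb held 8 DMSO members, with 24, 38, 32, 30, 28, 26, 25 and 21 fragments in order from IRF2BP2, and 1 AS-99 member with 23 fragments. The AS-99 member, from 235091253 to 235091627, overlapped the DMSO member from 235091057 to 235091584. Scaled to 10000000 (10 M) fragments these were 17.4 with AS-99 and 16.7 with DMSO, a difference within the Poisson error of either count. ASH1L peaks overlapped 2 of the 8 DMSO members, including the highest, whose window is printed above.

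Between ZEB2, a zinc-finger transcription factor, and ACVR2A on chromosome 2, 5 DMSO members and 0 AS-99 members were listed. The 4 nearest to ZEB2 lay 125, 140, 162 and 180 kb upstream, with 24, 30, 36 and 43 fragments, and the last 2 of them in TEX41. The fifth lay 1231 kb away with 12 fragments. None was overlapped by a DMSO ASH1L peak. The background around the 2 members in TEX41 was 7.32 and 6.51 times the DMSO genome background, so they stood in a broad stretch of high signal.

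**Figure D3:**
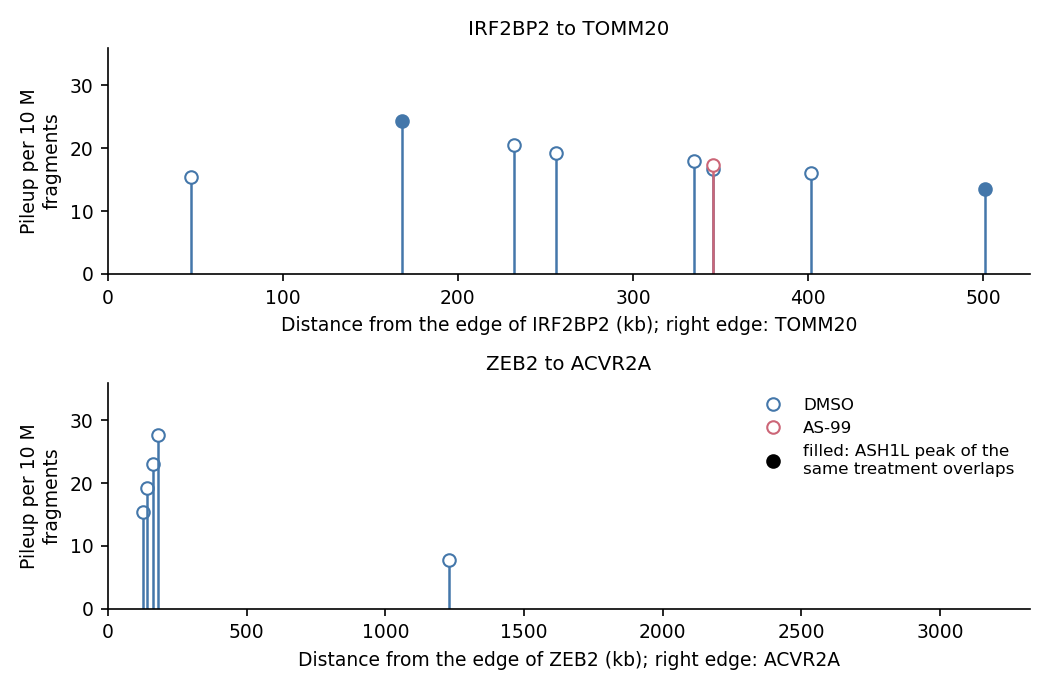
H3K36me2 peaks by distance (kb) from the gene edge at the left end of 2 intervals between genes, with the pileup per 10 M fragments as the height, for DMSO (blue) and AS-99 (red). Filled points were overlapped by an ASH1L peak of the same treatment. From IRF2BP2 to TOMM20 there are 8 DMSO peaks and 1 AS-99 peak, which lies on a DMSO peak, and from ZEB2 to ACVR2A 5 DMSO peaks and 0 AS-99 peaks.

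The other intervals with 3 or more DMSO members bordered genes of various kinds. Beyond ETS2 on chromosome 21, another transcription factor gene, there were 4 DMSO members and 0 AS-99 members, with 14, 19, 37 and 21 fragments. Before CD44, an adhesion receptor, there were 3 and 0, with 31, 24 and 20 fragments at 98.5, 60.9 and 55.0 kb from the gene. Upstream of FCGR1A, the high-affinity receptor for immunoglobulin G, there were 3 and 0, between 13.7 and 25.6 kb from it, 2 of them in sequence with a second copy in the genome. Between SYK, a kinase of immune receptor signalling, and AUH there were 3 and 0, all in LINC02937. The interval from CD83 to JARID2 held 3 and 1, that from KLF4 to ACTL7B 3 and 1, and that from CITED2 to NMBR 3 and 1. On chromosome 8, the interval from MYC to GSDMC, which holds PVT1 and CCDC26, held 4 and 0, and that from EBF2 to PPP2R2A 4 and 0. The intervals from ZPLD1 to ALCAM, DAB2 to TTC33, AKIRIN2 to SPACA1, MTSS1 to ZNF572 and PRKCQ to SFMBT2 held 3 and 0 each, that from RUNX2 to CLIC5, given above, also 3 and 0, and that from LZTS1 to GFRA2 3 and 2. These intervals, and the 2 drawn above, were named for a high DMSO count, which was seen first. That choice alone favours a lower count with AS-99, so the pairs of counts do not show a loss at these places. No intervals chosen by their AS-99 count were set beside them. The members before ZNF595 are given with the shared ones.

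By chromosome, the density with DMSO was highest on chromosome 19, at 1.35 members per Mb of intergenic sequence, then 22 at 0.971 and 8 at 0.759. It was lowest on chromosome X, at 0.0735. With AS-99 the highest were again chromosomes 19 and 8, at 0.415 and 0.405, and X was lowest at 0.0420. Chromosome 8 held 60 DMSO and 32 AS-99 members, and without it the difference in intergenic share was −5.24 points (−10.2 to −0.15). This interval left out 0, whereas that over all chromosomes included it. Leaving out chromosome 8 was chosen after seeing the data.

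Retention, the overlap of a DMSO member by at least 1 bp of an AS-99 H3K36me2 peak, was low. Of 628 DMSO members 42 were retained, or 6.69% (4.86% to 8.93%), beside 6.75% of all eligible DMSO H3K36me2 peaks and 6.81% of those in genes. In the other direction 42 of 263 AS-99 members, or 16.0% (11.8% to 21.0%), lay on a DMSO peak, beside 14.9% of all eligible AS-99 peaks. These shares are near those of all peaks and are not particular to sequence between genes. In a wider search a peak of the other treatment lay within 1 kb of 7.64%, within 10 kb of 8.44% and within 100 kb of 17.0% of DMSO members. For AS-99 members these shares were 18.3%, 19.4% and 34.98%. In both lists the share rose little up to 10 kb and more by 100 kb, but a wider window alone finds more peaks. No share over all eligible peaks was set beside these, and the part of window width was not tested. By the overlap of 1 bp, 221 AS-99 members had no DMSO peak under them although the DMSO library was deeper. The list with AS-99 was thus not a subset of the list with DMSO.

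Retained members were higher and more often within 50 kb of a gene. The median pileup with DMSO was 24 (20 to 27) for the 42 retained and 19 (18 to 19) for the 586 others. Of the 151 members with at least 24 fragments 14.6% (9.36% to 21.2%) were retained, and of the 477 lower ones 4.19% (2.58% to 6.40%). Within 50 kb of a gene 31 of 357 were retained, or 8.68%, and farther away 11 of 271, or 4.06%, a difference of 4.62 points (0.67 to 8.44). The median distance to a gene was 18.8 kb (10.4 to 38.0) for retained DMSO members and 40.6 kb (33.2 to 46.0) for the others, with overlapping intervals. By band the shares retained were 7.14% under 5 kb, 9.27% at 5 to 50 kb, 3.73% at 50 to 500 kb and 6.67%, 2 of 30, beyond. They did not fall steadily with distance, and nearness was not examined within classes of pileup. In noncoding genes 5.82% were retained and elsewhere 7.06%, a difference of −1.24 points (−5.01 to 3.52).

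The overlap with ASH1L was examined because ASH1L writes this mark. A DMSO ASH1L peak overlapped 109 DMSO members, or 17.4% (14.5% to 20.6%), beside 16.7% of all eligible DMSO H3K36me2 peaks. An AS-99 ASH1L peak overlapped 48 AS-99 members, or 18.3% (13.8% to 23.5%), beside 16.8% of all eligible AS-99 peaks. The difference between treatments was 0.89 points (−4.36 to 6.71), and between members and peaks in genes it was 1.36 points (−2.69 to 5.43) with DMSO. More than 4 in 5 members of either list thus had no ASH1L peak listed with the same treatment. The ASH1L list of the other treatment overlapped 60 DMSO members (9.55%, 7.37% to 12.1%) and 58 AS-99 members (22.1%, 17.2% to 27.6%). AS-99 members thus lay on DMSO ASH1L peaks at least as often as on AS-99 ones. The DMSO ASH1L list was longer, with 3092 peaks against 1829 with AS-99, and a longer list alone gives more overlaps. No share over all eligible peaks was set beside these, and the part of list length was not tested. By distance the DMSO shares were 13.3%, 20.1%, 17.4% and, over 500 kb, 6.67% or 2 of 30.

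DMSO members with an ASH1L peak were retained more often, by less when the members in all 4 lists were left out. Of the 109 with one 22 were retained, or 20.2% (13.1% to 28.9%), and of the 519 without one 20, or 3.85% (2.37% to 5.89%), a difference of 16.3 points (9.56 to 24.9). Members with an ASH1L peak were also higher, with a median pileup of 22 against 18. Among members of at least 24 fragments the shares were 12 of 40 (30.0%) and 10 of 111 (9.01%), a difference of 21.0 points (7.27 to 36.9). Among lower members they were 10 of 69 (14.5%) and 10 of 408 (2.45%), a difference of 12.04 points (5.31 to 22.3). Without the 14 members in all 4 lists, which by construction are retained and have an ASH1L peak, the shares were 8 of 95 (8.42%) and 20 of 519, and the difference was 4.57 points, with a lower bound just above 0 (0.00232 to 12.01).

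Among AS-99 members, 15 of the 48 with an AS-99 ASH1L peak lay on a DMSO H3K36me2 peak, or 31.2%, and 27 of the 215 without one, or 12.6%, a difference of 18.7 points (6.29 to 33.3). Among AS-99 members of at least 18 fragments the difference was 27.1 points (1.38 to 49.9), and among lower ones 7.30 points, with an interval that included 0 (−4.02 to 25.4). Regions in all 4 lists are by construction shared and have an ASH1L peak, so leaving them out can lower only the share with an ASH1L peak. The AS-99 shares were then 1 of 34 (2.94%) with an ASH1L peak and 27 of 215 without, a difference of −9.62 points (−15.3 to 2.94). This comparison therefore cannot decide whether ASH1L overlap and sharing are related in the AS-99 list apart from those regions.

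One of the members in all 4 lists, on chromosome X from 108297392 to 108297818, lay in the pseudogene CTD-2328D6.1 between IRS4 and GUCY2F. It had 59 fragments (44.9 to 76.1) and 58 (44.04 to 74.98), and with a fold enrichment of 20.1 and 21.2 it stood far above its surroundings. The counts did not differ between treatments beyond counting error. The lists were called without a control library, so signal there that does not depend on the antibody was not tested for.

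Further members in all 4 lists lay on chromosome 19 before TNFSF9, a ligand of T cell costimulation, with 30 and 21 fragments, and on chromosome 12 from 127650505 to 127650944 with 29 and 25. The last of these lay 1101 kb from a gene, was 70.9% GC and held 14.3 CpG per 100 bp, where the median member held 0.821. On chromosome 1 beyond SERINC2 the pair was 26 and 17, on chromosome 11 beyond RPS6KA4 25 and 20, and on chromosome 16, 487 bp from CTF1, 23 and 15. The longest DMSO member, 1154 bp between SDC2 and CPQ on chromosome 8, had 38 and 18. Of the 628 DMSO members 14 were in all 4 lists, or 2.23% (1.22% to 3.71%), and of the 263 AS-99 members 14, or 5.32% (2.94% to 8.77%). The share over all eligible peaks was not computed, so these counts show nothing particular to sequence between genes.

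At the end of the short arm of chromosome 4, before ZNF595, a gene of the zinc-finger family, 3 DMSO and 2 AS-99 members lay within 24.3 kb of the gene. The member from 28685 to 29418 had 31 and 25 fragments and was in all 4 lists, and that from 43108 to 43757 had 52 and 32. The member from 51389 to 51918 had 49 fragments (36.3 to 64.8) with DMSO and no overlapping AS-99 H3K36me2 peak. The background around the last 2 was 8.004 and 9.26 times the genome background with DMSO, and 6.37 times at the first of these with AS-99. They lay 33.1 and 41.4 kb from the nearest undetermined base, at the chromosome end.

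Among DMSO members with no AS-99 counterpart, the highest after those near ZNF595 and ZEB2 lay between IRF2BP2 and TOMM20 with 38 fragments, on chromosome 21 from 40356653 to 40357037 with 37, and on chromosome 8 from 60149931 to 60150632, 119 kb upstream of TOX, a nuclear factor of lymphocyte development, with 36. Among AS-99 members with no DMSO counterpart, the highest had 30 fragments on chromosome 8 from 91243356 to 91243680, in LINC00534. On chromosome 8 from 126398379 to 126398771, 44.02 kb before TRIB1, a pseudokinase with roles in myeloid leukemia, there were 26. On chromosome 11 from 64007823 to 64008282, between VEGFB and FKBP2 and 499 bp from the latter, there were 25. On chromosome 1 from 16940219 to 16940499, 288 bp upstream of NBPF1, a gene with many near-identical copies, there were 25. A counterpart here is an H3K36me2 peak. A DMSO ASH1L peak overlapped the AS-99 members in LINC00534, before TRIB1 and upstream of NBPF1, but not that near FKBP2.

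At the 42 members matched 1 to 1 the summit signal itself was compared. The median log2 ratio of pileup per filtered fragment, AS-99 over DMSO, was −0.21 (−0.38 to −0.07), with 30 pairs lower and 12 higher and a range from −1.02 to 1.12. The largest fall was on chromosome 13 between MRPL57 and ZDHHC20, from 36 to 15 fragments. The largest rise was on chromosome 8 between CA2 and REXO1L1, from 13 to 24. The direction was not settled. AS-99 fragments were shorter, by 0.10 on the log2 scale, and with this length also scaled the median was −0.11 (−0.28 to 0.03), with 25 of 42 lower. With fold enrichment as the measure it was 0.10 (−0.10 to 0.23), and with peaks near large gaps included it was 0.03 (−0.08 to 0.24) over 70 pairs. Over the 22 pairs with a DMSO ASH1L peak it was −0.14 (−0.38 to 0.05), and over the 20 without one −0.26 (−0.47 to −0.08), with overlapping intervals.

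The surroundings of the peaks also differed between treatments. The background the caller set behind each peak, computed from its pileup and fold enrichment, was divided by the genome background of the same library. This scales each value for depth and mean fragment length, but does not remove their part in which peaks are listed. The median of this ratio was 2.09 (2.01 to 2.21) for DMSO members and 1.51 (1.44 to 1.55) for AS-99 members. At least 2 times the genome background stood behind 342 of 628 DMSO members (54.5%) but 47 of 263 AS-99 members (17.9%), a difference of −36.6 points (−42.3 to −30.2). In genes the medians were 1.97 and 1.53 and the shares 47.9% and 15.5%, so the difference was not limited to intergenic sequence. Median fold enrichment was 4.40 for DMSO members and 5.07 for AS-99 members, and these shares were not recomputed at a common threshold. As listed, DMSO members stood more often in broad stretches of raised signal.

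These are different places in each list, so the same 42 pairs were used again. There the background relative to the genome background had a median log2 ratio of −0.37 (−0.46 to −0.20), and it was lower with AS-99 in 35 of 42 pairs. It was lower in 26 of the 28 pairs not in all 4 lists, with a median of −0.39 (−0.49 to −0.28), and in 9 of the 14 in all 4. The pair between IRF2BP2 and TOMM20 had 3.77 with DMSO and 2.45 with AS-99, and that beside AHI1 3.58 and 2.45. The local window was 10 kb, and the background includes fragments of the peak itself. With 1 library per treatment, an effect of AS-99 on broad H3K36me2 cannot be told apart from a difference between libraries in how evenly fragments were spread.

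**Figure D4:**
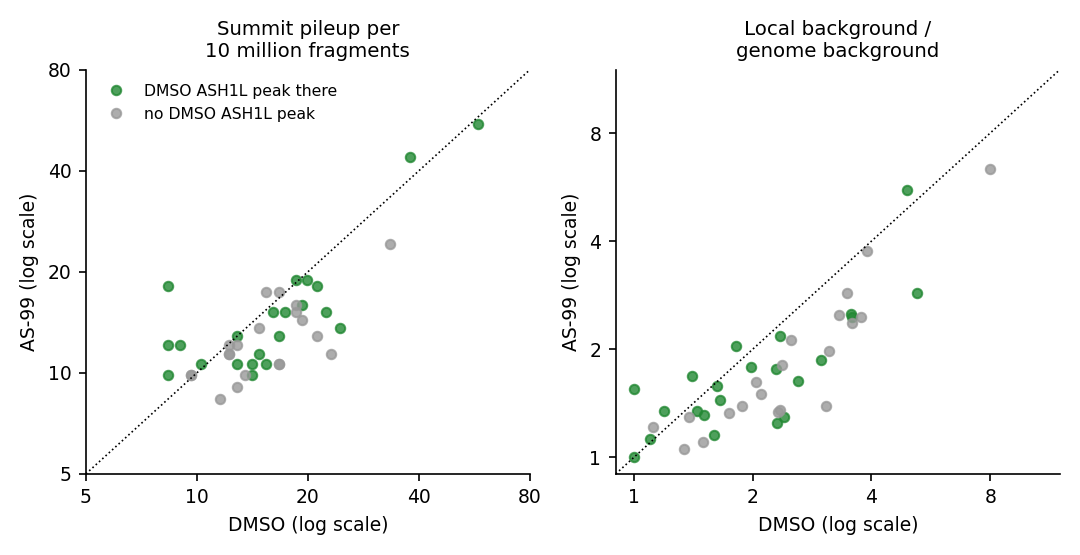
The 42 H3K36me2 peaks between genes listed with both treatments, DMSO on the horizontal and AS-99 on the vertical axis, both logarithmic. The left panel gives the pileup per 10 M fragments, where 30 pairs lie below the dotted line of equality and 12 above, and the right panel the local over the genome background, where 35 lie below. Green pairs had a DMSO ASH1L peak (22) and grey pairs had none (20).

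**Figure D5:**
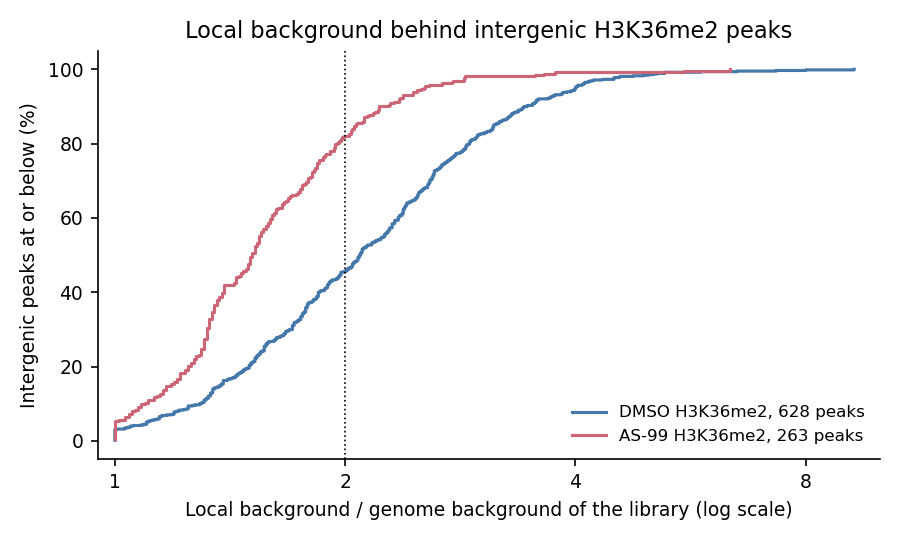
Cumulative share of H3K36me2 peaks between genes (%) by local background divided by the genome background of the same library (log axis), for 628 DMSO and 263 AS-99 peaks. The dotted line marks 2 times the genome background, which 54.5% of DMSO and 17.9% of AS-99 peaks reached.

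The sequence of the members was described last. Median GC content was 44.4% (43.7% to 45.2%) with DMSO and 45.2% (44.05% to 46.5%) with AS-99, close to the 43.7% and 43.8% of the 5 kb on either side, while intergenic sequence in tiles of 300 bp averaged 40.1%. The mean number of CpG in the 300 bp around the summit was 3.71 and 4.51, against 2.60 per tile. DMSO members with an ASH1L peak were richer in GC, at 46.8% (45.4% to 48.9%), than those without, at 43.7% (42.9% to 44.5%). In 27 DMSO members (4.30%) and 13 AS-99 members (4.94%) the median word of 32 bases recurred in the genome, so that reads there could be misplaced.

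The 3 motifs printed above in capitals were counted in the 300 bp around every summit. The RUNX letters occurred in 178 DMSO windows (28.3%, 24.8% to 32.04%) and 56 AS-99 windows (21.3%, 16.5% to 26.7%), against 19.5% of all intergenic tiles of that length. The ETS letters occurred in 85 (13.5%, 11.0% to 16.5%) and 24 (9.13%, 5.94% to 13.3%), against 6.01% of tiles. The AP-1 letters occurred in 106 (16.9%, 14.03% to 20.04%) and 41 (15.6%, 11.4% to 20.6%), against 9.60%. For RUNX the difference between treatments was −7.05 points (−12.9 to −0.73), for ETS −4.41 (−8.52 to 0.36) and for AP-1 −1.29 (−6.28 to 4.30). Both strands were searched and matches of different motifs could share end bases. DMSO peaks in genes held the letters at similar shares, 26.4% for RUNX, 13.0% for ETS and 14.5% for AP-1. AS-99 peaks in genes held them at 23.5%, 10.1% and 9.76%, differences between treatments of −2.89 points (−8.38 to 2.93), −2.98 (−6.91 to 1.42) and −4.76 (−8.74 to −0.33). The motif whose difference had an interval without 0 was thus RUNX between genes and AP-1 in genes, and whether these differences differ was not tested. The members were richer in GC than the tiles, and the part of this in the motif shares was not tested. A match describes the letters only.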

How the data were processed

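CUT&RUN of H3K36me2 and ASH1L was performed in MV4;11 cells, with 1 library for each antibody and treatment, grouped by the labels. The authors mapped reads to hg19 with Bowtie2 and called peaks per library. Per the file headers they used MACS 2.1.0.20150731 in paired-end mode at a q-value of 0.01, without a control library and with 10 kb as the local window. The study's text names other calling settings, a slightly higher dose and a spike-in; the headers and labels were followed here, and values carry no spike-in scaling. Whether a library pools several cultures was not settled by the sources.

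Deposited signal is the summit pileup, not scaled to depth. The deposited −log10 p-value and −log10 q-value compare it with the larger of the local and genome background by a Poisson model. The fold enrichment deposited by the authors divides the pileup by this background, with 1 added to both.

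Summits were annotated with GENCODE release 44 lifted to GRCh37, whose chromosome lengths equal those of hg19. Of the DMSO and AS-99 H3K36me2 lists, 16 and 18 peaks on chromosomes Y and M and 56 and 43 near gaps of at least 1 Mb were left out. Peaks overlapped with at least 1 bp. Shares carry Clopper-Pearson intervals, their differences Newcombe intervals, count ratios exact conditional binomial intervals, pileups exact Poisson intervals and medians order-statistic intervals. Fragments without molecular identifiers may not be independent molecules. Named peaks were chosen by rule: the highest, highest retained, highest not overlapped, those in all 4 lists, those at lncRNA exons or starts, the nearest, the farthest and the longest. Peaks in 1 interval between genes that this rule names are not reported here. The members, lists and motifs were chosen with earlier results of these data known. Overlap and annotation steps were tested on simulated data against bedtools 2.31.1, and computed with Python 3.11.15, numpy 2.4.6, pandas 2.3.3 and scipy 1.17.1. Alternatives were a −log10 p of at least 10, a fold enrichment of at least 5, no gap limit, whole peaks at least 5 kb from genes, a common lowest −log10 p, a reciprocal overlap of 50% and sharing within 1 kb. Those without chromosome 8, without recurring sequence, without regions in all 4 lists and with fragment size were chosen after seeing the data.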

Additional observations from a re-analysis of the deposited data

How the results depend on the processing

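Of 65 alternative values for 7 results, 59 neither left the 95% interval of the value in the report nor changed a direction that this interval had settled. The count ratio moved to 0.886 when a fold enrichment of 5 or more was required (350 of 1375 DMSO and 343 of 652 AS-99 H3K36me2 peaks remained), and otherwise stayed between 0.380 and 0.465. Retention moved to 10.8% under the same fold limit, to 10.5% with no gap limit and to 4.56% without regions in all 4 lists, which removes retained members by construction. The matched log2 ratio changed sign with no gap limit, to 0.032, and with fold enrichment as the scale, to 0.10. For the moves with the fold enrichment and the gap limit the cause was not tested. The differences in intergenic share (−5.24 to −1.60 points), noncoding share (0.39 to 7.78), share near genes (−1.78 to 7.21) and share with ASH1L (−1.82 to 4.62) stayed within the reported intervals. Without chromosome 8 the interval of the difference in intergenic share itself left out 0 (−10.2 to −0.15). No paired analysis was possible because there was a single library in each group. Depth limits all results, since the median member rests on 19 fragments with DMSO and 14 with AS-99.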
